A study of Homo sapiens with 9 samples.

Results

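The integrated stress response genes described here were ATF4 and 9 genes of its pathway, DDIT3, ASNS, CHAC1, TRIB3, DDIT4, SESN2, VLDLR, PSAT1 and PHGDH. They were chosen by name as genes of the ATF4 pathway, and all 10 were found among 56349 genes and passed the filter on low counts that left 16181 genes for testing. RNA was sequenced from the nucleus and the cytoplasm of an established human embryonic kidney line, HEK293 in the labels, which carries adenoviral DNA. The methods name a T derivative of that line. The sources used here name no agent or allele added to any group besides the siRNAs. Control groups received control siRNA, and RNAi groups received siRNAs against WTAP together with KIAA1429, both subunits of the complex that writes N6-methyladenosine (m6A) into mRNA. Cells received 10 nM siRNA, were transfected again after 48 hours and were collected after 72 hours. The 9 samples comprised 3 control nuclear, 3 RNAi nuclear, 2 RNAi cytoplasmic and 1 control cytoplasmic sample, so the control cytoplasm had no replicate.

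The integrated stress response joins several stress-sensing kinases, which phosphorylate the translation initiation factor eIF2 and lower protein synthesis. ATF4, a bZIP transcription factor, is then translated more efficiently through upstream open reading frames in its mRNA, so that its mRNA level alone does not give its protein level. ATF4 raises transcription of genes for amino acid supply, redox balance and feedback on the response itself, often with the factor encoded by DDIT3, known as CHOP.

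The estimated counts of a sample summed to between 11627403 and 19036141. A log2 fold change is called here where it exceeded 0.5 in size with a false discovery rate (FDR) under 0.1, computed with edgeR by quasi-likelihood and adjusted over all genes tested by the Benjamini-Hochberg method. In CPM the siRNA targets were lower in every RNAi sample than in the controls of its fraction. WTAP fell to 56.2% of its control level in the nucleus (FDR = 0.0169, edgeR) and to 30.3% in the cytoplasm (FDR = 0.00079, edgeR), and KIAA1429, annotated as VIRMA, fell to 47.2% (FDR = 0.0314) and 23.8% (FDR = 0.00268). Of 7 markers of the cell line 5 were matched, with summed TPM between 733.4 and 2035. Of 4 markers of other cell types 3 were matched, with summed TPM of 2.54 in the control cytoplasm, 4.41 and 10.99 in the RNAi cytoplasm, 2.57 to 3.83 in the control nucleus and 4.48 to 6.68 in the RNAi nucleus, nearly all of it the actin gene ACTA2. The leukocyte gene PTPRC and the hepatocyte gene ALB were below the count filter. Nuclear RNA markers summed to between 43.3 and 57.8 TPM in the nuclear samples and to between 7.14 and 10.2 TPM in the cytoplasmic samples. The 7 mitochondrially encoded mRNAs summed to 163655 to 247530 TPM in the nuclear and 103567 to 161195 TPM in the cytoplasmic samples, so mitochondrial RNA was present in the nuclear fraction too.

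Promoter sequence is shown for the members whose start region carries the C/EBP-ATF response element, through which ATF4 binds DNA in partnership with C/EBP factors. The element was searched as TGATGNAA on both strands in the RefSeq promoter table of GRCh38.p14, from 250 bases before to 50 after each start. It occurred in 3.63% of 34796 promoters. All 10 members were in the table, with 15 promoters, and 2 held a match. The cyclic AMP response element TGACGTCA, which does not overlap these matches, occurred in 1.84% of promoters and in none of the 15. The match in ASNS lies on the gene's own strand from position -68 to -61, in chr7:97872409-97872536 on the minus strand. The match in CHAC1 lies on the opposite strand from position -209 to -202, in chr15:40953221-40953329 on the plus strand. Both stretches are upstream of the start and are printed 5′ to 3′ along the gene, with the match in capitals.
ASNS: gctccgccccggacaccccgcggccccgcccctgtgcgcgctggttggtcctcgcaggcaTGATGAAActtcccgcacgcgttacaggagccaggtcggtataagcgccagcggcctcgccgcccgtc
CHAC1: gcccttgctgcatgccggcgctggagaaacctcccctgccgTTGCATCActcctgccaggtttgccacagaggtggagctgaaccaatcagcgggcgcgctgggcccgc
The absence of these letters in the other promoters says only that this window does not hold them.

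The 10 genes covered a wide range of levels, which were compared per length as TPM. ATF4 was by far the most abundant, with group means between 1137 and 1989 TPM, above at least 99.6% of the genes tested. PHGDH followed with group means between 97.8 and 148.6 TPM, then ASNS between 74.96 and 114.8 TPM and PSAT1 between 60.8 and 104.2 TPM. DDIT4, SESN2 and TRIB3 lay between 32.6 and 68.5 TPM. DDIT3, VLDLR and CHAC1 were low, at 2.11 to 6.52, 0.791 to 2.27 and 0.152 to 3.09 TPM. Neighbours in this order were not always separate. In the RNAi cytoplasm PHGDH averaged 146.3 ± 18.3 TPM, ASNS 114.8 ± 42.2 TPM and PSAT1 104.2 ± 34.2 TPM (SD, n = 2), and the samples of ASNS overlapped those of both others. In the control nucleus PHGDH at 148.6 ± 8.31 TPM lay above ASNS at 104.6 ± 12.3 TPM, while DDIT4 at 68.5 ± 2.50 TPM and PSAT1 at 63.1 ± 1.93 TPM did not overlap either (SD, n = 3).

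**Figure D1:**
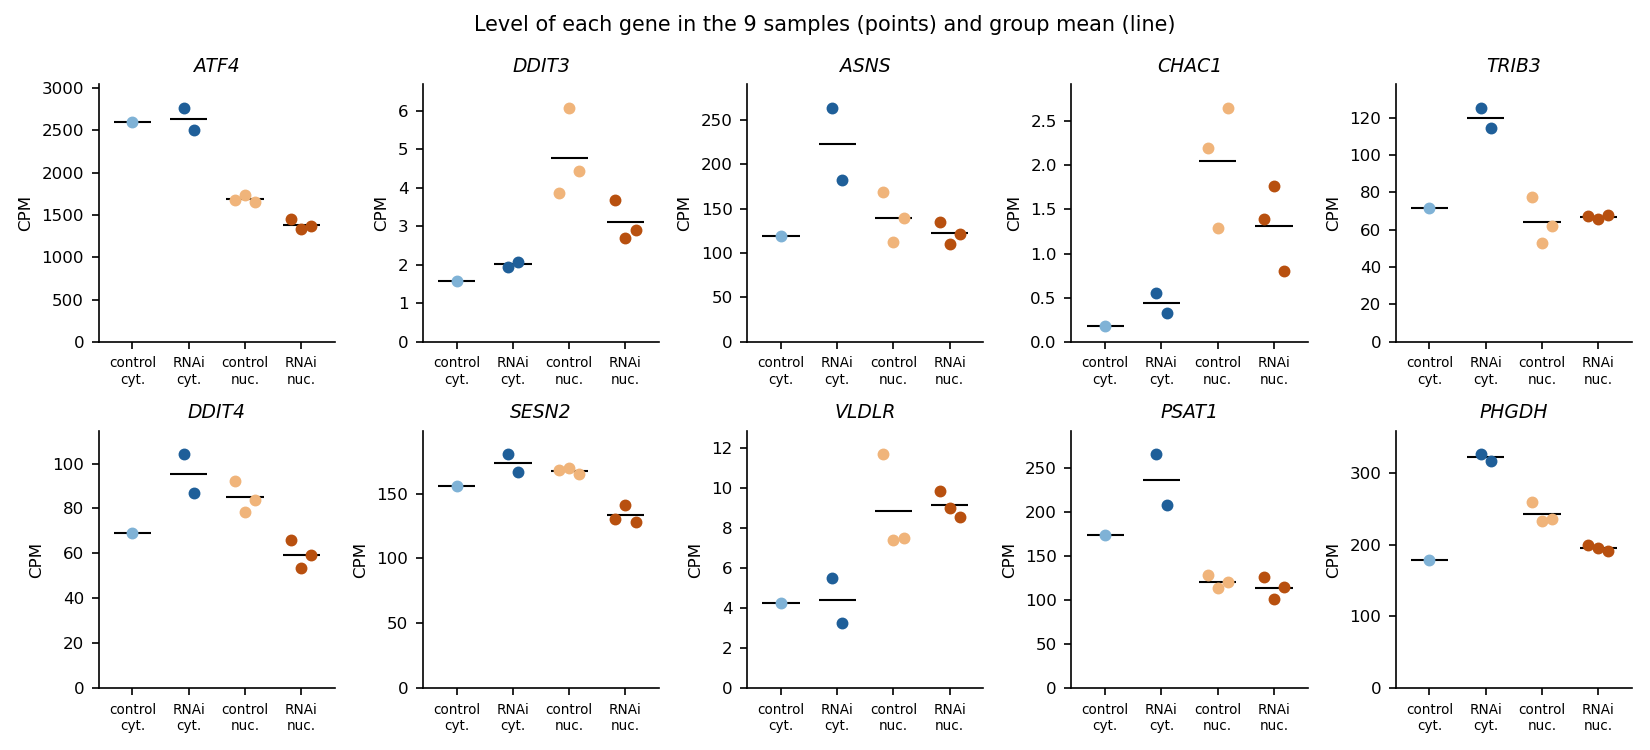
Level of each of the 10 genes in scaled counts (CPM, linear axis from 0) in every sample, with points for samples, lines for group means, and cyt. and nuc. for the cytoplasmic and nuclear fractions. PHGDH, TRIB3 and ASNS were higher in both RNAi cytoplasmic samples than in the single control cytoplasmic sample, while DDIT4, SESN2, ATF4, DDIT3 and PHGDH were lower in all RNAi nuclear samples than in all control nuclear samples.

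After depletion of WTAP and KIAA1429, 3 of the 10 genes in the cytoplasm rose past both thresholds, PHGDH, ASNS and TRIB3, and none fell, against 10.4% of all genes tested that rose and 14.2% that fell. Without adjustment 5 rose and none fell at a p under 0.05, against 16.5% and 17.7% of all genes. DESeq2 called the same numbers as edgeR, 3 and 0, against 10.1% and 11% of all genes, and limma on log2(TPM + 1) called none, against 0.612% and 8.63%. All 10 fitted values lay above 0, with a median log2 fold change of 0.45 beside 0.01 for all genes tested. In the nucleus 1 of the 10 genes fell, DDIT4, and none rose, against 2.42% of all genes tested that fell and 2.47% that rose. Over all genes that background moved with single samples, with 392 genes lower and 400 higher in all samples, 20 and 32 without RNAi nuclear replicate 3, 49 and 57 without RNAi nuclear replicate 2, 129 and 127 without RNAi nuclear replicate 1 and 42 and 46 without control nuclear replicate 3. Without control nuclear replicate 1, 609 were higher. Without adjustment 5 of the 10 genes fell and none rose at a p under 0.05, against 10.7% and 10.1% of all genes. DESeq2 called none, against 1.8% lower and 2.01% higher, and limma called none, against 0.136% and 0.939%. There 8 of 10 fitted values lay below 0, with a median of -0.30 beside 0.00 for all genes. Scaling mattered to these directions. With library size alone the median of all genes in the cytoplasm moved to -0.24, and 7 of the 10 genes lay above 0 and 9 above that median. With limma on log2(TPM + 1) the median of all genes was -0.16, with 8 above 0 and 9 above the median. Single RNAi cytoplasmic samples moved cytoplasmic values both ways. Without replicate 2 DDIT4 went from 0.46 to 0.54 and PSAT1 from 0.44 to 0.56. Without replicate 1 ASNS went from 0.91 to 0.62.

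The cytoplasmic comparison rested on 1 control sample, and its spread was taken from the replicated groups. In CPM, 8 of the 10 genes were higher in both RNAi cytoplasmic samples than in the control sample, as were 39.6% of all genes tested, and none was lower in both, as were 40.1% of all. In TPM 5 genes, DDIT3, ASNS, CHAC1, TRIB3 and PHGDH, were higher in both, as were 21.9% of all genes, and ATF4 was lower in both, as were 53.7%. For DDIT3 the lower RNAi sample and the control sample both read 2.11 TPM when rounded, and for CHAC1 both rest on 3 counts. The mitochondrial mRNAs, which share the total to which TPM is scaled, summed to 103567 TPM in the control cytoplasm and to 112668 and 161195 TPM in the RNAi cytoplasm. Their part in the difference between the scales was not tested. Nuclear RNA markers summed to 10.2 TPM in the control and to 7.14 and 9.19 TPM in the RNAi cytoplasm, and MALAT1 (-1.20 ± 0.41) and KCNQ1OT1 (-0.79 ± 0.26) fell there (SE, log2 fold change, edgeR). The smooth muscle actin gene ACTA2 rose in the cytoplasm, at 1.77 ± 0.50. In the nucleus the nuclear RNAs NEAT1 (0.52 ± 0.10) and KCNQ1OT1 (0.79 ± 0.14) rose (SE, log2 fold change, edgeR). Among the cell line markers NEFM rose in the nucleus (0.62 ± 0.16) and in the cytoplasm (0.95 ± 0.24), and KRT8 fell in the nucleus, at -0.59 ± 0.14. The part of these RNAs in the values of the 10 genes was not tested. In the nucleus 5 of the 10 genes, ATF4, DDIT3, DDIT4, SESN2 and PHGDH, were lower in all 3 RNAi samples than in all 3 control samples in CPM, as were 13.8% of all genes tested. In TPM 4 of them were, against 7.3% of all genes, while SESN2 overlapped, with 45.9 TPM in RNAi replicate 2 and 45.6 TPM in control replicate 1. Whether a level in a fraction differed through fewer cells with the RNA or less RNA per cell cannot be told apart in bulk samples.

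**Figure D2:**
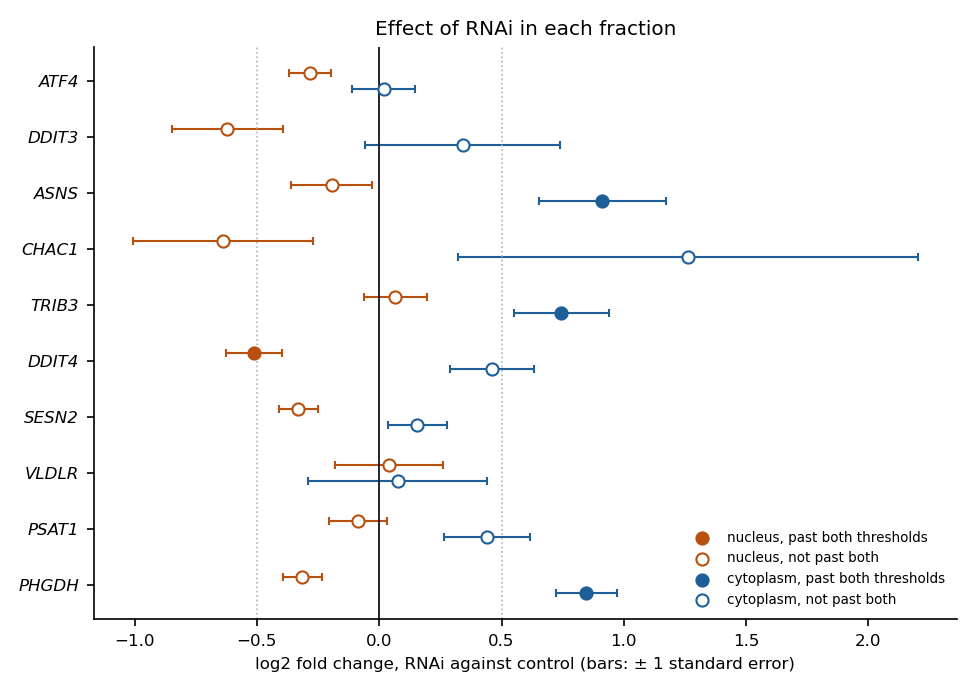
Log2 fold change of each of the 10 genes after RNAi in the nucleus and in the cytoplasm, with bars of 1 standard error and dotted lines at a log2 fold change of 0.5 in either direction. Fitted cytoplasmic values lay above nuclear values for all 10 genes (for VLDLR by 0.03, which reversed with library size alone), and filled points mark PHGDH, ASNS and TRIB3 in the cytoplasm and DDIT4 in the nucleus.

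ATF4, the transcription factor at the centre of the pathway, lies at chr22:39915700-39918688 in hg19 on the plus strand. Its cytoplasmic level was 2599.5 CPM in the control sample and 2765 and 2499.6 CPM in the RNAi samples. Its nuclear level was 1678, 1731 and 1657 CPM in the control samples and 1449.7, 1337 and 1369.9 CPM in the RNAi samples. The RNAi samples straddled the control value in the cytoplasm and lay below every control sample in the nucleus. The log2 fold change was 0.02 ± 0.13 in the cytoplasm (SE, FDR = 0.943, edgeR) and -0.29 ± 0.09 in the nucleus (SE, FDR = 0.0959, edgeR), the latter within the FDR threshold but short of the fold threshold. The direction of the cytoplasmic value was not fixed, since it was -0.24 with library size alone and -0.25 with limma on log2(TPM + 1).

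DDIT3, which encodes the pro-apoptotic factor CHOP, lies at chr12:57910371-57915520 on the minus strand. Its level was 1.58 CPM in the control cytoplasm and 1.95 and 2.08 CPM in the RNAi cytoplasm. Nuclear levels were 3.85, 6.07 and 4.42 CPM in the control samples and 3.69, 2.69 and 2.91 CPM in the RNAi samples. The nuclear groups were separate, but the highest RNAi sample came close to the lowest control sample. The log2 fold change was -0.62 ± 0.23 in the nucleus (SE, FDR = 0.158, edgeR) and 0.34 ± 0.40 in the cytoplasm (SE, FDR = 0.592, edgeR). The nuclear value passed both thresholds without control nuclear replicate 1, at -0.76 (FDR = 0.0934). The estimates rest on 19 to 89 counts per sample, and DDIT3 overlaps MARS1 and MBD6 on the opposite strand, which had 1994 to 5437 counts per sample. Use of read strand in the quantification is not given in the sources used here, so reads from any bases that these genes share may not be told apart. Whether their transcripts share bases was not tested.

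PHGDH and PSAT1 encode consecutive enzymes at the entry of serine synthesis from glycolysis. PHGDH lies at chr1:120191034-120286841 on the plus strand. Its level was 178.6 CPM in the control cytoplasm and 325.6 and 316.9 CPM in the RNAi cytoplasm. Its nuclear levels were 259.7, 233.1 and 235.5 CPM in the control samples and 199.5, 194.9 and 191.7 CPM in the RNAi samples. In the nucleus all RNAi samples lay below all control samples, as they did for 13.8% of all genes tested. In the cytoplasm both RNAi samples were above the single control sample, as they were for 39.6% of all genes. PHGDH rose 1.80-fold in the cytoplasm, with a log2 fold change of 0.85 ± 0.12 (SE, FDR = 0.00237, edgeR). In the nucleus the log2 fold change was -0.31 ± 0.08 (SE, FDR = 0.0609, edgeR), short of the fold threshold. With limma on log2(TPM + 1) the cytoplasmic value was 0.57 (FDR = 0.141).

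PSAT1 lies at chr9:80912041-80945009 on the plus strand. Its level was 174.7 CPM in the control cytoplasm and 265.8 and 208.1 CPM in the RNAi cytoplasm. Nuclear levels were 129.2, 114.0 and 120.5 CPM in the control samples and 126.2, 101.2 and 114.8 CPM in the RNAi samples. The nuclear groups overlapped, and in the cytoplasm both RNAi samples were above the single control sample in CPM. In TPM they straddled it, at 128.4 and 80.1 against 91.9 TPM. The log2 fold change was 0.44 ± 0.18 in the cytoplasm (SE, FDR = 0.108, edgeR) and -0.09 ± 0.12 in the nucleus (SE, FDR = 0.717, edgeR). Without RNAi cytoplasmic replicate 2 the cytoplasmic value passed, at 0.56 (FDR = 0.0761).

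ASNS encodes asparagine synthetase, a classic target of ATF4, and lies at chr7:97480989-97501854 on the minus strand. Its level was 118.7 CPM in the control cytoplasm and 263.7 and 182.8 CPM in the RNAi cytoplasm. Its nuclear levels were 168.5, 112.1 and 139.4 CPM in the control samples and 134.6, 110.7 and 121.5 CPM in the RNAi samples. Both RNAi cytoplasmic samples were above the control, replicate 1 by much more than replicate 2, and the nuclear groups overlapped. ASNS rose 1.88-fold in the cytoplasm, with a log2 fold change of 0.91 ± 0.26 (SE, FDR = 0.0331, edgeR), and its nuclear value was -0.19 ± 0.17 (SE, FDR = 0.546, edgeR). Without RNAi cytoplasmic replicate 1 the call was lost, at 0.62 (FDR = 0.12), as it was with limma on log2(TPM + 1), at 0.56 (FDR = 0.316).

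TRIB3 encodes a pseudokinase that feeds back on ATF4 and CHOP, and DDIT4 and SESN2 encode inhibitors of the growth-promoting kinase complex mTORC1. TRIB3 lies at chr20:343479-378203 on the plus strand. Its level was 71.5 CPM in the control cytoplasm and 125.2 and 114.3 CPM in the RNAi cytoplasm. In the nucleus it was 77.3, 52.8 and 61.8 CPM in the control samples and 67.5, 65.5 and 67.9 CPM in the RNAi samples. The nuclear RNAi samples lay inside the range of the controls, whereas both cytoplasmic RNAi samples were above the control sample. TRIB3 rose 1.68-fold in the cytoplasm, with a log2 fold change of 0.74 ± 0.20 (SE, FDR = 0.0243, edgeR), against 0.07 ± 0.13 in the nucleus (SE, FDR = 0.816, edgeR). The cytoplasmic call was lost with the length offset (FDR = 0.113), with library size alone (FDR = 0.117) and with limma on log2(TPM + 1) (FDR = 0.394).

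DDIT4, also called REDD1, lies at chr10:74033678-74035794 on the plus strand. Its level was 92.4, 78.5 and 83.9 CPM in the control nuclear samples and 65.8, 53.5 and 59.1 CPM in the RNAi nuclear samples. In the cytoplasm it was 69.3 CPM in the control sample and 104.1 and 86.7 CPM in the RNAi samples. The groups were separate in both fractions, lower after RNAi in the nucleus and higher in the cytoplasm. DDIT4 fell to 70.1% of its control level in the nucleus, with a log2 fold change of -0.51 ± 0.11 (SE, FDR = 0.0436, edgeR). This value sat at the fold threshold, and the call was lost without any 1 of control nuclear replicate 1 (-0.45), control nuclear replicate 3 (FDR = 0.144), RNAi nuclear replicate 2 (-0.44) or RNAi nuclear replicate 3 (FDR = 0.168). DESeq2 put it at -0.495, short of the fold threshold. In the cytoplasm the log2 fold change was 0.46 ± 0.17 (SE, FDR = 0.0842, edgeR), short of the fold threshold, and it passed without RNAi cytoplasmic replicate 2, at 0.54 (FDR = 0.0959).

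SESN2 lies at chr1:28586029-28609002 on the plus strand. Its level was 168.2, 169.8 and 164.9 CPM in the control nuclear samples and 130.6, 141.0 and 128.4 CPM in the RNAi nuclear samples. In the cytoplasm it was 155.5 CPM in the control sample and 180.2 and 166.3 CPM in the RNAi samples. The nuclear groups were separate in CPM and overlapped in TPM. The log2 fold change was -0.33 ± 0.08 in the nucleus (SE, FDR = 0.0549, edgeR), short of the fold threshold, and 0.16 ± 0.12 in the cytoplasm (SE, FDR = 0.407, edgeR), where it turned to -0.10 with library size alone and to -0.12 with limma on log2(TPM + 1).

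CHAC1 encodes an enzyme that degrades glutathione, and VLDLR a receptor for very low density lipoprotein that ATF4 is known to raise under endoplasmic reticulum stress. CHAC1 lies at chr15:41245160-41248710 on the plus strand and was near the detection limit, where 3 counts correspond to 0.190 to 0.303 CPM. It had 3 counts in the control cytoplasm and 7 and 3 counts in the RNAi cytoplasm. In the nucleus it had 32, 19 and 30 counts in the control samples and 20, 19 and 11 counts in the RNAi samples. The ratio of the RNAi to the control cytoplasm was 2.49 from these counts, with an exact 95% interval of 0.642 to 14.1 that covers counting error only, so no difference was detectable at this depth. The fitted log2 fold change was -0.64 ± 0.37 in the nucleus (SE, FDR = 0.354, edgeR).

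VLDLR lies at chr9:2621182-2660056 on the plus strand, beside the antisense gene VLDLR-AS1 with 1 to 11 counts. Its level was 4.26 CPM in the control cytoplasm and 5.53 and 3.28 CPM in the RNAi cytoplasm. In the nucleus it was 11.7, 7.43 and 7.52 CPM in the control samples and 9.87, 8.99 and 8.57 CPM in the RNAi samples. The groups overlapped in both fractions. The log2 fold change was 0.04 ± 0.22 in the nucleus (SE, FDR = 0.944, edgeR) and 0.07 ± 0.37 in the cytoplasm (SE, FDR = 0.914, edgeR), and intervals of this width do not show that the level was the same. Between the RNAi cytoplasmic samples, replicate 1 exceeded replicate 2 for 9 of the 10 genes, with CPM ratios up to 1.69 for VLDLR, 1.66 for CHAC1 and 1.44 for ASNS, beside a median of 1.02 and a 90th percentile of 1.51 for all genes tested.

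The study asked how depletion of the methyltransferase subunits changed the balance of each mRNA between nucleus and cytoplasm. The ratios below are between CPM values scaled within each fraction, so 0 on the log2 scale is not an equal number of molecules. Since the nuclear fraction also held mitochondrial RNA, a higher nuclear value does not by itself place an mRNA inside the nucleus. In control cells 3 of the 10 genes were higher in the nucleus, CHAC1, DDIT3 and VLDLR, against 28% of all genes tested, and 2 were lower there, ATF4 and PSAT1, against 22.7%. After RNAi the same 3 were higher, against 32.9%, and 6 were lower, against 24.9%. The 6 were PSAT1, ATF4, ASNS, TRIB3, PHGDH and DDIT4. With limma on log2(TPM + 1) no gene was called lower in control cells and 4 were higher, PHGDH among them at 0.60 (FDR = 0.0379), which also passed with 10 counts in every sample (0.53) and with the length offset (0.50). With limma ASNS (-0.22), DDIT4 (-0.30) and PHGDH (-0.27) lost their call after RNAi, where the median of all genes moved from 0.04 to 0.32. These comparisons share samples with those above, so their values are given side by side only.

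ATF4 had a log2 nuclear/cytoplasmic ratio of -0.62 ± 0.12 in control cells (SE, FDR = 0.00184, edgeR) and -0.93 ± 0.09 after RNAi (SE, FDR = 2.64e-05, edgeR). PSAT1 went from -0.53 ± 0.16 to -1.05 ± 0.13, the former lost as a call without control nuclear replicate 2, at -0.47. Both fitted ratios were thus below 0 in either condition. PHGDH stood at 0.44 ± 0.12 in control cells and at -0.72 ± 0.09 after RNAi. In samples with the same number, its nuclear to cytoplasmic CPM ratio was 1.31 in control replicate 2 and 0.613 and 0.615 in RNAi replicates 1 and 2.

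DDIT4 likewise stood at 0.29 ± 0.16 in control cells and -0.68 ± 0.13 after RNAi, ASNS at 0.24 ± 0.24 and -0.87 ± 0.18, and SESN2 at 0.11 ± 0.11 and -0.38 ± 0.09. The ratio of TRIB3 was -0.16 ± 0.18 and -0.84 ± 0.14. The fitted ratios of the low genes stayed above 0. DDIT3 had a ratio of 1.59 ± 0.36 in control cells and 0.63 ± 0.29 after RNAi, VLDLR 1.06 ± 0.34 and 1.03 ± 0.27. The RNAi value of DDIT3 lost its call with DESeq2 (FDR = 0.195), with the length offset (FDR = 0.296), without a filter on low counts (FDR = 0.221) and without any 1 of RNAi cytoplasmic replicate 1 (FDR = 0.245) or 2 (FDR = 0.146) or RNAi nuclear replicate 1 (FDR = 0.214) or 3 (FDR = 0.105). For CHAC1 the summed counts gave a nuclear to cytoplasmic ratio of 10.9 in control cells, with an exact 95% counting interval of 3.61 to 54.1, and of 2.76 after RNAi, with an interval of 1.38 to 6.11. The RNAi value of CHAC1 lost its call without RNAi cytoplasmic replicate 2 (FDR = 0.139).

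**Figure D3:**
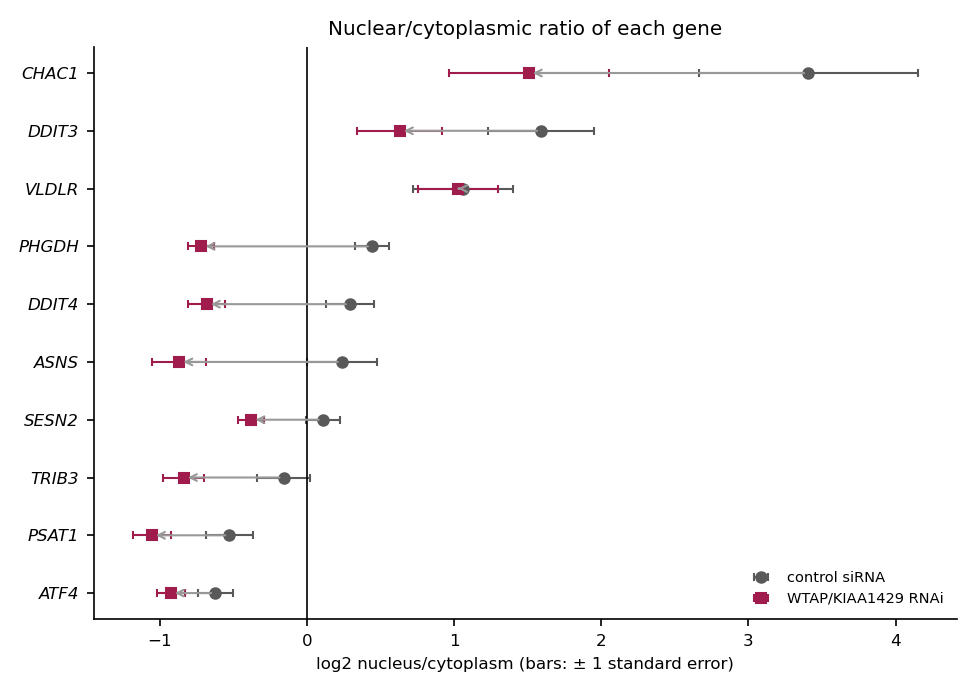
Log2 ratio of nuclear to cytoplasmic level of each of the 10 genes in control cells (circles) and after RNAi (squares), with bars of 1 standard error and arrows from control to RNAi. Every arrow points to a lower ratio, from 0.44 to -0.72 for PHGDH and from 1.06 to 1.03 for VLDLR, whose change turned to 0.25 with library size alone.

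The change of the ratio was tested directly as an interaction. It fell past both thresholds for 4 of the 10 genes, PHGDH, ASNS, DDIT4 and TRIB3, against 7.87% of all genes tested, and rose for none, against 10.4%. Without adjustment 6 fell and none rose at a p under 0.05, against 13.7% and 14.3% of all genes. DESeq2 called 4 lower and none higher, against 7.03% and 7.92%. Limma on log2(TPM + 1) called 1 lower, PHGDH at -0.86 (FDR = 0.0826), and none higher, against 0.185% and 6.45%. PHGDH had the largest called change, with a log2 change of -1.16 ± 0.15 (SE, FDR = 0.0024, edgeR). ASNS followed at -1.11 ± 0.31 (SE, FDR = 0.044, edgeR), then DDIT4 at -0.97 ± 0.21 (SE, FDR = 0.0166, edgeR) and TRIB3 at -0.68 ± 0.23 (SE, FDR = 0.087, edgeR). SESN2 was within the FDR threshold but short of the fold threshold, at -0.49 ± 0.15 (SE, FDR = 0.0574, edgeR), and passed both without RNAi nuclear replicate 2, at -0.53.

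The remaining changes of the ratio did not pass the FDR threshold. They were -0.30 ± 0.16 for ATF4 (FDR = 0.235, edgeR), -0.53 ± 0.21 for PSAT1 (FDR = 0.135), -0.96 ± 0.46 for DDIT3 (FDR = 0.204), -1.90 ± 1.01 for CHAC1 (FDR = 0.249) and -0.03 ± 0.43 for VLDLR (FDR = 0.974). PSAT1 passed without RNAi cytoplasmic replicate 2, at -0.65, and without control nuclear replicate 2, at -0.57. All 10 fitted values lay below 0, with a median of -0.82 beside -0.05 for all genes tested. With library size alone VLDLR turned to 0.25, and the median of the 10 genes was -0.54 beside 0.23 for all genes. ASNS lost its call without RNAi cytoplasmic replicate 1 (-0.82, FDR = 0.108) and narrowly without control nuclear replicate 3 (FDR = 0.101). Of the fits without a single sample, TRIB3 kept its call only without control nuclear replicate 2. It lost the call without each of 7 samples, with values between -0.70 and -0.47. The call was also lost with 10 counts in every sample (FDR = 0.141, edgeR) and with the length offset (FDR = 0.183, edgeR). Library size alone (FDR = 0.375, edgeR) and limma on log2(TPM + 1) (FDR = 0.6) lost it too.

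The transcripts behind these sums differed between the fractions. The 10 genes had 47 transcripts in the files. A single transcript held 99.6% to 99.8% of the TPM of ATF4 in the cytoplasmic and 98.2% to 98.7% in the nuclear samples, and PHGDH-202 held 98.5% to 99.2% of the TPM of PHGDH in the cytoplasm but 87.1% to 90.2% in the nucleus. For PHGDH the remainder was mostly in shorter transcripts, several of which keep an intron. PHGDH-204, annotated as a retained intron, had 2.88 to 6.15 TPM in the nuclear samples and was listed at 0 in all cytoplasmic samples. PHGDH-203, with no defined coding sequence, had 4.51 to 9.02 TPM in the nucleus and 0.32 to 1.23 TPM in the cytoplasm.

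ASNS showed the same division. ASNS-216, a retained intron transcript of 689 nucleotides, had 4.04 to 7.57 TPM in the nuclear samples and was listed at 0 in the cytoplasm, and the short ASNS-204 had 2.71 to 4.35 TPM against 0.15 to 0.28 TPM. The full-length ASNS-202 made up 74.4% to 78.5% of the gene's TPM in the cytoplasm and 54.8% to 62.0% in the nucleus. ATF4-201, with 2 exons where the leading ATF4-202 has 3, had 7.97 to 15.6 TPM in the nucleus and 0.62 to 1.49 TPM in the cytoplasm.

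DDIT4-002, also annotated as a retained intron, was not higher in the nucleus, with 12.0 to 30.5 TPM in the cytoplasm, the highest in RNAi replicate 1, and 13.8 to 22.6 TPM in the nucleus. Nearly all nuclear CHAC1 came from CHAC1-202, a transcript with 2 exons, at 91.6% to 97.3% of the gene's TPM, so that the gene's nuclear excess was an excess of this transcript. Salmon splits reads between transcripts that overlap, and transcript values of low genes moved widely. DDIT3-201 took between 0.0% and 74.3% of the TPM of DDIT3 in the nuclear samples.

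**Figure D4:**
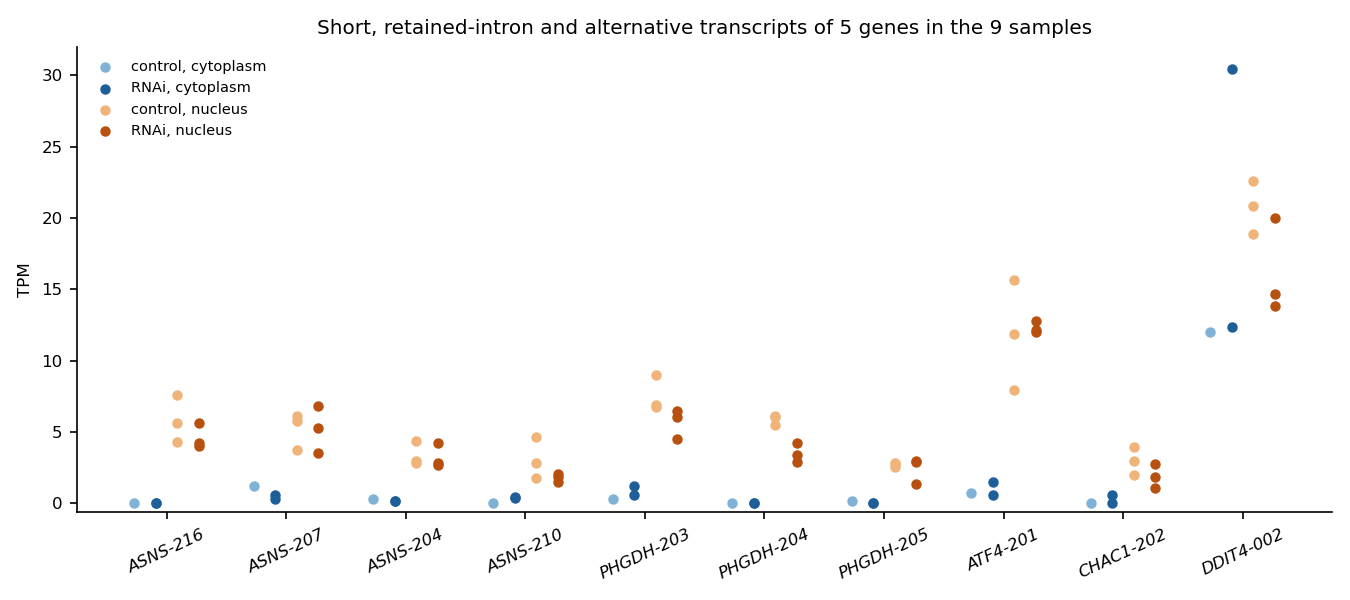
TPM of 10 short, retained intron or alternative transcripts of ASNS, PHGDH, ATF4, CHAC1 and DDIT4 in each of the 9 samples, with 1 point per sample and color for the group. ASNS-216 and PHGDH-204 were listed at 0 in the cytoplasmic samples and lay between 2.88 and 7.57 TPM in the nuclear samples, while DDIT4-002 reached 30.5 TPM in the cytoplasm.

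Sequence features were taken from the GENCODE sequences of the leading transcripts and were not tested. Their median length was 2044 nucleotides beside 1955 for all genes tested, and their median GC content 55.5% beside 51.1%. The letters GGACT, a common form of the m6A motif, occurred in 8 of the 10 transcripts and in 78.7% of all, with a median of 1.16 beside 0.94 per kilobase. The leading transcripts of VLDLR, SESN2, DDIT4 and TRIB3 had the highest densities, from 1.70 to 2.55 per kilobase, and those of DDIT3 and CHAC1 had none. Other transcripts of these genes were not searched. The leading transcript held 0.0% to 87.8% of the TPM of CHAC1 in the cytoplasmic samples and 0.0% to 74.3% of that of DDIT3 in the nuclear samples.

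The rest of the pathway was described through lists of related genes. Shares over all genes tested by the other measures were as follows, for every list below. At an unadjusted p under 0.05, 16.5% were higher and 17.7% lower in the cytoplasm, and 10.1% and 10.7% in the nucleus. DESeq2 called 10.1% and 11% in the cytoplasm and 2.01% and 1.8% in the nucleus. Limma on log2(TPM + 1) called 0.612% and 8.63% in the cytoplasm and 0.939% and 0.136% in the nucleus. Of 10 amino acid transporters, which supply the substrates of the response, 8 rose in the cytoplasm, against 10.4% of all genes tested, 1 fell, against 14.2%, and none was called in the nucleus by edgeR, DESeq2 or limma, where 3 were lower and none higher at an unadjusted p under 0.05. With limma on log2(TPM + 1) 2 rose in the cytoplasm and 1 fell, against 0.612% and 8.63% of all genes. The median log2 fold change was 0.83 in the cytoplasm and -0.08 in the nucleus, beside 0.01 and 0.00 for all genes tested. The glycine transporter SLC6A9 rose by 1.20 ± 0.21, SLC43A1 by 1.19 ± 0.25, the cationic amino acid transporter SLC7A3 by 1.14 ± 0.39 and the leucine transporter SLC7A5 by 1.03 ± 0.17 on the log2 scale (SE, FDR = 0.00404 to 0.0628, edgeR). The gene that fell was SLC38A2, a glutamine transporter and known ATF4 target, at -1.02 ± 0.31 (SE, FDR = 0.0401, edgeR). This value was chosen for mention after it was seen. SLC7A11, the cystine transporter, was not called, at -0.95 ± 0.43 (SE, FDR = 0.144, edgeR). The ratio fell for 7 of the 10 transporters, against 7.87% of all genes tested. It fell the most for SLC7A3, at -1.66 ± 0.45, SLC43A1, at -1.27 ± 0.29, SLC6A9, at -1.26 ± 0.25, and SLC1A4, at -1.16 ± 0.30. DESeq2 called 8 of these ratios lower, against 7.03% of all genes. Limma on log2(TPM + 1) called none lower, against 0.185%, and none higher, against 6.45%.

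Of 12 enzymes of serine, one-carbon, proline and transsulfuration metabolism 5 rose in the cytoplasm and none fell, against 10.4% and 14.2% of all genes tested, with a median of 0.41, and none was called in the nucleus by edgeR, DESeq2 or limma, with a median of -0.07 and 1 lower and none higher at an unadjusted p under 0.05. DESeq2 also called 5 higher in the cytoplasm, against 10.1% of all genes, and limma on log2(TPM + 1) called 1, against 0.612%. PCK2, mitochondrial phosphoenolpyruvate carboxykinase, rose by 1.71 ± 0.45, SHMT2, mitochondrial serine hydroxymethyltransferase, by 0.98 ± 0.17, PYCR1, which makes proline, by 0.86 ± 0.12 and MTHFD1L, of the mitochondrial folate pathway, by 0.58 ± 0.14 on the log2 scale (SE, FDR = 0.00188 to 0.0236, edgeR). CBS was the other gene called, at 0.51 ± 0.16. The ratio fell for 4 of the 12, against 7.87% of all genes, PCK2 (-1.63 ± 0.51), SHMT2 (-0.96 ± 0.20), PYCR1 (-0.95 ± 0.14) and CBS (-0.71 ± 0.19). For the ratio DESeq2 also called 4 lower, against 7.03%. Limma on log2(TPM + 1) called none lower there, against 0.185%.

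The 20 cytosolic aminoacyl-tRNA synthetases, several of which are ATF4 targets, were split in the cytoplasm. By edgeR and DESeq2 5 were higher and 5 lower, against 10.4% and 14.2% of all genes tested by edgeR and 10.1% and 11% by DESeq2. Limma on log2(TPM + 1) called none higher and 5 lower, against 0.612% and 8.63%. QARS1 rose by 0.84 ± 0.12 on the log2 scale, whereas EPRS1 stood at -1.18 ± 0.15 and RARS1 at -0.86 ± 0.21 (SE, FDR = 0.00131 to 0.0173, edgeR). In the nucleus 2 fell, against 2.42% of all genes, among them FARSB at -0.59 ± 0.18 (SE, FDR = 0.0937, edgeR). DESeq2 called 1 lower there, against 1.8%, and limma on log2(TPM + 1) none, against 0.136%. The ratio rose for 2, against 10.4% of all genes, and fell for 5, against 7.87%, from 1.23 ± 0.18 for EPRS1 to -0.99 ± 0.15 for QARS1. DESeq2 also called 2 ratios higher and 5 lower, against 7.92% and 7.03%. Limma on log2(TPM + 1) called 2 higher and none lower, against 6.45% and 0.185%.

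Other ATF4 or CHOP targets did not move together. Of 12 tested, 2 rose and 2 fell in the cytoplasm, against 10.4% and 14.2% of all genes, with a median of -0.10, and 2 fell in the nucleus, against 2.42%, with a median of -0.24. DESeq2 called the same numbers. Limma on log2(TPM + 1) called none higher and 2 lower in the cytoplasm, against 0.612% and 8.63% of all genes, and none in the nucleus. The translation repressor EIF4EBP1 rose by 0.85 ± 0.14 and the death receptor TNFRSF10B by 0.60 ± 0.16 on the log2 scale, while KLHL24 stood at -1.15 ± 0.30 and the BH3-only gene PMAIP1 at -0.98 ± 0.20 (SE, FDR = 0.0038 to 0.0236, edgeR). In the nucleus STC2 stood at -0.66 ± 0.12 and PMAIP1 at -0.61 ± 0.14. FGF21 was below the count filter.

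Among the upstream machinery, of 14 eIF2 kinases, subunits, exchange factors and phosphatase subunits 1 rose in the cytoplasm and 3 fell, against 10.4% and 14.2% of all genes, and none was called in the nucleus by edgeR, DESeq2 or limma, where 1 was higher and 2 were lower at an unadjusted p under 0.05. DESeq2 also called 1 higher and 3 lower in the cytoplasm, against 10.1% and 11% of all genes. Limma on log2(TPM + 1) called none higher and 3 lower there, against 0.612% and 8.63%. EIF2AK2, which encodes the double-stranded RNA sensor PKR, stood at -1.14 ± 0.14, the alpha subunit gene EIF2S1 at -1.05 ± 0.18, the beta subunit gene EIF2S2 at -0.75 ± 0.21 and the exchange factor gene EIF2B2 at 0.65 ± 0.23 (SE, FDR = 0.00111 to 0.0673, edgeR). Of 6 stress transcription factors NFE2L2, which drives the antioxidant response, was the 1 called after RNAi, at -0.77 ± 0.18 in the cytoplasm (SE, FDR = 0.0164, edgeR), a call that limma on log2(TPM + 1) did not make.

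Genes of the other arms of the unfolded protein response, controlled by IRE1 and ATF6, had no gene called higher in either fraction by edgeR, DESeq2 or limma, with 1 higher in the cytoplasm and none in the nucleus at an unadjusted p under 0.05. Of 18 tested, 3 fell in the cytoplasm, against 14.2% of all genes, HSP90B1 (-1.11 ± 0.14), DNAJC3 (-1.08 ± 0.27) and SEL1L (-0.56 ± 0.21), with a median of 0.08, and none was called in the nucleus, where 4 were lower at an unadjusted p under 0.05. The chaperone gene HSPA5 stood at 0.05 ± 0.21 in the cytoplasm and -0.31 ± 0.14 in the nucleus, both not called. In control cells 13 of 18 were higher in the nuclear fraction, against 28% of all genes tested, led by HSPA5 at 1.94 ± 0.22 and HYOU1 at 1.88 ± 0.36. After RNAi 11 of 18 were higher there, against 32.9%. Of the 7 mitochondrially encoded mRNAs 3 were also called higher in this fraction in control cells, and 2 higher and 1 lower after RNAi. Whether the RNA of the 18 genes lay inside the nucleus was not tested.

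**Figure D5:**
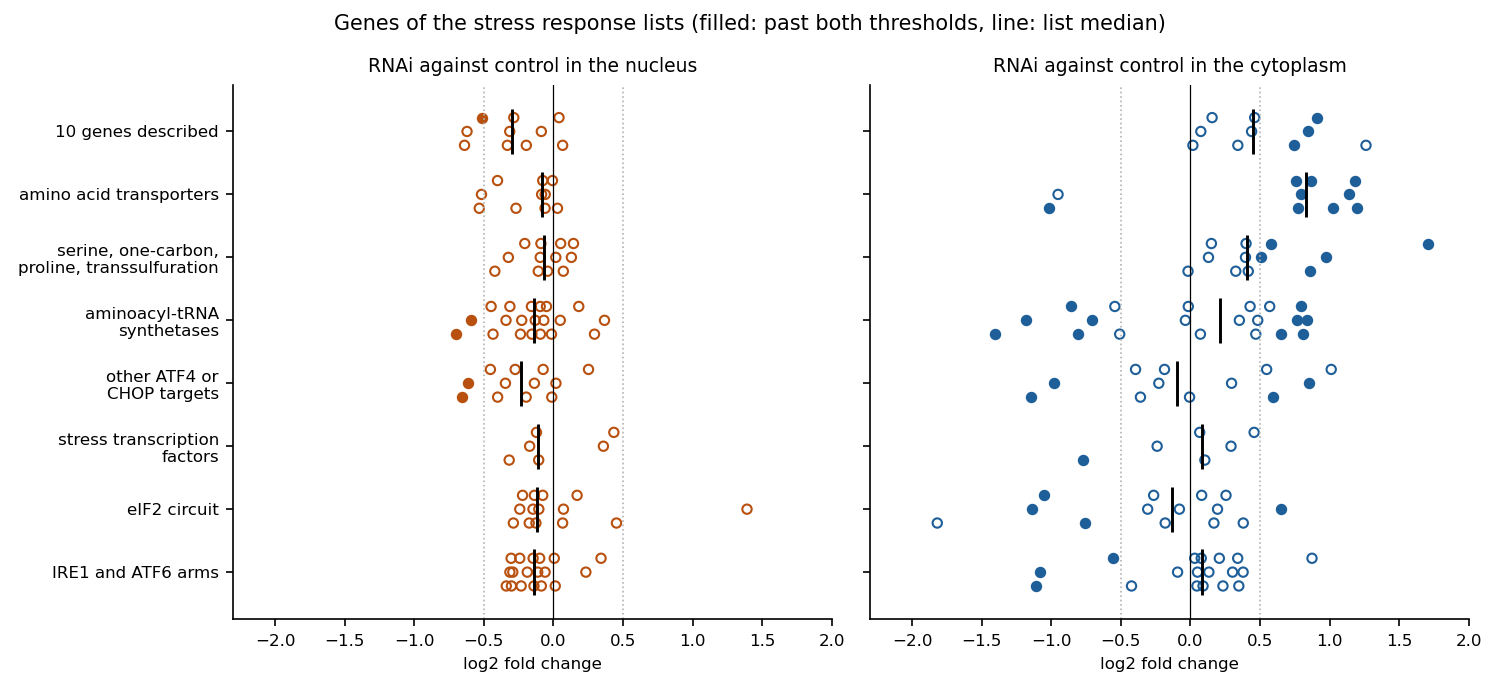
Log2 fold change after RNAi in the nucleus (left) and in the cytoplasm (right) for the 10 genes and 7 lists of related genes, with 1 point per gene, filled where past both thresholds, and a black line at each median. The transporters had the highest cytoplasmic median, 0.83, and the IRE1 and ATF6 arms lay near 0 at 0.08.

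Lists also differed in their balance between the fractions in control cells, which was not tested between lists. Of the transporters 9 of 10 were higher in the nuclear fraction, against 28% of all genes tested. Their median log2 ratio was 1.24, against 0.27 for the 10 genes and 0.04 for all genes tested. SLC7A3 at 3.12 ± 0.39 and SLC3A2 at 2.18 ± 0.15 were at the top. After RNAi the median of the transporters was 0.60. Among the synthetases 8 of 20 were lower in the nuclear fraction in control cells, against 22.7% of all genes tested, among them RARS1 at -0.95 ± 0.19. Another 4 were higher, against 28% of all genes, led by MARS1 at 0.84 ± 0.13.

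The genes whose profile over the 4 group means of log2 CPM lay closest to that of ATF4 were CENPBD2P, ERICH5, CMTM3, ARRB2 and HMOX1, with root mean square distances between 0.012 and 0.019 over 9 samples that all genes share. HMOX1 encodes heme oxygenase, an antioxidant enzyme. Of the other 9 genes, PSAT1 came closest, at a distance of 0.161 and rank 1072, and CHAC1 was farthest, at 1.41 and rank 14714.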

How the data were processed

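Nuclear and cytoplasmic RNA was sequenced with the Lexogen SENSE mRNA kit. The authors trimmed reads with cutadapt, merged lanes and quantified transcripts with salmon against Ensembl transcripts of hg19, with versions of the tools not given in the sources used here. The authors deposited, per transcript and sample, an estimated count without normalization between samples, a TPM value scaled to the same total in every sample, and lengths in nucleotides, with replicates kept apart.

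Of 215170 transcripts, 183122 (85.1%) were joined, ignoring version suffixes, to GENCODE 44 gene models on GRCh37, and carried 83.07% to 88.31% of a sample's counts. The others were left out. Each gene's estimated count is the rounded sum over its transcripts. Genes reaching 10 counts in 3 or more samples entered edgeR 4.0.16 in R 4.3.3 (TMM, quasi-likelihood, 1 fit of 4 groups, 5 residual degrees of freedom), so the control cytoplasm takes its spread from the other groups. CPM is scaled by the TMM-normalized library size. A standard error is the fold change divided by the square root of F. Nothing in the labels says that replicates came from separate cultures, so p-values measure the spread between these samples. No replicate pair agreed within sampling noise (chi-square per degree of freedom at least 5.45). The fit was tested on simulated data. Alternatives used DESeq2 1.42.0 and limma 3.58.1. The named genes are the 10 genes, both siRNA targets, up to 4 called genes per list and comparison by size, and the 5 genes nearest to ATF4's profile. Any other gene given with values was named after its values were seen. The rule names SLC7A11 and SLC38A2 by their nuclear/cytoplasmic ratio after RNAi. Their cytoplasmic changes were picked for mention after they were seen. A gene that the rule names among the listed genes is not reported here. The 10 genes and the lists were chosen with earlier results of these data known. No set test was run. Protein sequences were not used here.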

Additional observations from a re-analysis of the deposited data

Results flagged for a closer look

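The effect of RNAi differed between nucleus and cytoplasm, by the interaction test at an FDR under 0.1 (edgeR), for 5 of the 10 genes and 25 of the other named genes. The 10 genes, both siRNA targets and the listed genes that the rule names made up 65 genes, of which 30 passed. The other named genes were partly chosen for a call in this same comparison, so their number and directions say nothing of their lists. Over all genes tested 1680 ratios rose and 1273 fell past both thresholds. That count also asks for a log2 fold change beyond 0.5, at which SESN2 drops out and 4 of the 10 genes fell. The share of all genes at the FDR alone is not given here. Every one of these tests rests on the single control cytoplasmic sample. Among the 10 genes the log2 change of the ratio was -1.16 for PHGDH, -1.11 for ASNS, -0.97 for DDIT4, -0.68 for TRIB3 and -0.49 for SESN2. Among the transporters it was -1.66 for SLC7A3, -1.27 for SLC43A1, -1.26 for SLC6A9, -1.16 for SLC1A4, -0.998 for SLC7A5 and -0.94 for SLC3A2. Among the metabolic enzymes it was -1.63 for PCK2, -0.96 for SHMT2, -0.95 for PYCR1 and -0.71 for CBS. The synthetases differed in direction, with 1.23 for EPRS1 and 0.58 for TARS1 against -0.99 for QARS1, -0.89 for MARS1, -0.86 for AARS1 and -0.51 for WARS1. So did the eIF2 genes, with 0.92 for EIF2AK2 and 0.81 for EIF2S1 against -0.55 for PPP1R15A, a regulatory subunit of the eIF2 phosphatase. The values were -0.99 for EIF4EBP1 and -0.58 for TNFRSF10B, 1.20 for NFE2L2, 1.00 for HSP90B1, -0.65 for HERPUD1 and 0.89 for the siRNA target WTAP.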

How the results depend on the processing

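The 22 called values of the 10 genes were recomputed under up to 19 alternatives each. Of 395 values, 332 kept direction and call, 63 lost the call and 0 changed sign. Calls of the cytoplasm and of the ratio rest on 1 control sample, which could not be left out. Counts of 3 to 7 for CHAC1 and of 19 to 26 for DDIT3 in cytoplasmic samples limit both genes.

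Nuclear genes lower (1) numbered 0 with 10 counts in every sample, DESeq2's test, DESeq2 size factors, library size alone and limma, and 0 to 1 without single samples. Cytoplasmic genes higher (3) numbered 0 with limma and 2 to 5 without single samples. Ratios lower (4) numbered 2 with library size alone, 1 with limma and 2 to 5 without single samples. Genes lower in the control nucleus (2) numbered 1 with 10 counts in every sample, 0 with limma and 1 to 2 without single samples. Genes after RNAi lower in the nucleus (6) numbered 3 with limma, and those higher (3) numbered 2 with DESeq2's test, the length offset and no filter, and 1 to 3 without single samples. Counts over all genes moved as well. With library size alone nuclear genes lower went from 392 to 158, cytoplasmic genes higher from 1678 to 431 and ratios lower from 1273 to 164. With limma on log2(TPM + 1) they went to 22, 99 and 30. With limma genes lower in the control nucleus went from 3679 to 2415, and those lower in the nucleus after RNAi from 4034 to 1222. The cause of these changes was not tested.

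Values that changed sign belonged to genes not called. In the nucleus TRIB3 was -0.043 with the length offset and -0.056 to 0.224 without single samples, and VLDLR -0.078 to 0.29. In the cytoplasm ATF4 was -0.049 with 10 counts in every sample, -0.237 with library size alone, -0.254 with limma at either pseudocount, -0.026 without filter and -0.057 to 0.04 without single samples. SESN2 was -0.10 with library size alone and -0.125 and -0.123 with limma at pseudocounts of 0.1 and 1. VLDLR was -0.172 with library size alone and -0.376 to 0.327 without single samples. Its ratio was 0.065 with 10 counts in every sample, 0.252 with library size alone, 0.127 and 0.078 with limma, and -0.294 to 0.416 without single samples. SESN2 was -0.003 in control cells without filter and 0.006 after RNAi with limma.

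The replicate numbers were not taken as pairing, since not every same-numbered pair of samples correlated above 0.1 in its deviations from group means, with 0.185, 0.11 and 0.042 in the nucleus and 0.037 to 0.197 for the cytoplasmic RNAi samples with theirs, all above 0. A batch shared by number was not tested. RNAi nuclear replicate 3 correlated better with control nuclear replicate 2, at 0.056, than with its own number. With the replicate block the counts of called genes among the 10 were 0 higher and 1 lower in the nucleus, 3 and 0 in the cytoplasm and 0 and 4 for the ratio, ATF4 was -0.019 and VLDLR -0.216 in the cytoplasm, the ratio of VLDLR changed by 0.281, and ASNS was -0.017 in control cells. Over all genes the block moved lower ratios from 1273 to 1917.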
